A study of Mus musculus with 20 samples.

Results

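The autophagy machinery was followed here as 45 genes whose products start, build, load and deliver the autophagosome, chosen by name. All 45 were found among the 55416 genes listed, each under 1 Ensembl identifier, and all 45 passed the filter on low counts. The samples were right quadriceps muscles of wild-type male C57BL/6J mice aged 26–28 months, 1 muscle per mouse. The 10 control mice had received a single 50 µL intramuscular injection of saline, and 10 secretome mice the same volume of a cell-free product made from medium of partially differentiated human embryonic stem cells. Mice had been fasted for 4 h, and muscles were taken 3 h after the injection, so the comparison asks about an early transcript response. All mice were old and all were injected, so neither age nor the needle was varied. Control replicates 1 to 10 carry library numbers 1 to 10, and secretome replicates 1 to 10 carry library numbers 11 to 20.

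Autophagy encloses cytoplasm in a double membrane and delivers it to the lysosome. A kinase complex around ULK1 and ULK2 starts the process, a lipid kinase complex around Beclin 1 and VPS34 marks the membrane with PI3P, and a conjugation system attaches ATG8 proteins (LC3 and GABARAP) to the growing membrane. Receptors such as p62 bind cargo to ATG8, and SNARE proteins fuse the closed vesicle with the lysosome. In skeletal muscle the pathway is known to clear mitochondria and aggregates, is induced by fasting and is required to keep muscle mass.

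Total counts per muscle lay between 13286983 and 22987237. Libraries 6 to 15 hold control replicates 6 to 10 and secretome replicates 1 to 5, on either side of the change of treatment. These library ranges were known from earlier results of these data, and neither the labels nor the study's methods name a batch. Control replicates 1 to 5 had summed myofibre marker levels of 117760 to 195120 CPM (counts scaled to a common library size), below the 241480 to 332220 of control replicates 6 to 10, so the members' fold changes were computed for all 20 muscles and for libraries 6 to 15. Levels, shares and spreads are given over all 20. Over all 14471 genes tested, the median log2 fold change, secretome over control, was -0.03, and 1 gene (0.00691%) passed a 5% false discovery rate (edgeR, quasi-likelihood test, adjusted after Benjamini and Hochberg). In whole muscle, fewer cells of a type and less RNA per cell cannot be told apart.

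Promoter sequence is shown for 3 members named in the comparison below and for the 3 members with an E-box, since the basic helix-loop-helix factor TFEB, a regulator of autophagy genes, is known to bind a form of that motif. RefSeq promoters (GRCm38.p6) were matched for 38 of the 45 members, which gave 44 start sites. In the windows just upstream of the start, capitals mark a GC box (GGGCGG, searched on both strands).
Optn, chr2:5064118-5064217, minus strand: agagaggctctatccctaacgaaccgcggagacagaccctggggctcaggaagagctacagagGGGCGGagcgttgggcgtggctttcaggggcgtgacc
Ulk2, chr11:61855093-61855192, minus strand: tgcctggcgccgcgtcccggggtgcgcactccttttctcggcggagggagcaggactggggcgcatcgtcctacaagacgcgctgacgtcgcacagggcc
Zfyve1, chr12:83597223-83597322, minus strand: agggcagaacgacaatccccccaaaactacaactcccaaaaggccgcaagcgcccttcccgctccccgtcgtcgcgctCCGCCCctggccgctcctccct
The Optn and Zfyve1 windows hold 1 GC box each and the Ulk2 window holds 0. A second Zfyve1 start (chr12:83562461-83562560) had 0 in its window. Windows of other members named below are not shown, and held 4 for Wipi1, 3 for Stx17, and 0 for Gabarap and Vamp8. Each of these unshown windows overlaps an annotated exon, and those of Wipi1 and Gabarap lie inside the annotated gene. Over the 250 bases before each start, 22 of the 44 member promoters (50.0%) held a GC box, against 32.7% of all 32851 promoters. All promoters were counted whether or not their gene passed the filter on low counts, while all 45 members passed it. This pair of shares, and those for the E-box below, are thus not like comparisons. In the next windows capitals mark an E-box (CACGTG, the same on both strands).
Atg3, chr16:45158708-45158767, plus strand: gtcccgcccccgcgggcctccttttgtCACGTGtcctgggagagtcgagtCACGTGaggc
Atg5, chr10:44268279-44268338, plus strand: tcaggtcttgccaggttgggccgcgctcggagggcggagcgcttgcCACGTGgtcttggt
Atg7, chr6:114670937-114670996, plus strand: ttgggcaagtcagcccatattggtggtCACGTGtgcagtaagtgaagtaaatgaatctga
These were the only 3 member promoters with an E-box (6.82%, against 6.02% of all promoters), and 1 of them, Atg3, held the longer TCACGTGA (2.27%, against 0.785%). That longer form contains the E-box, so the counts overlap. The Atg7 window lies inside the annotated gene (chr6:114643097-114860614, plus strand), so it precedes an internal start and not the gene's first base. A match describes letters in a window and no binding was measured.

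Members differed widely in level. Levels were compared between genes as CPM per kilobase of exon (RPKM). Sqstm1, which encodes the cargo receptor p62, had the highest level, at 149.1 ± 32.17 RPKM (SD, n = 10) in control and 149.4 ± 16.67 RPKM (n = 10) in secretome muscle. Map1lc3a (LC3A) followed at 124.7 ± 31.48 RPKM in control muscle, and Gabarap at 54.19 ± 10.92 RPKM. Neighbouring ranks further down lay within each other's spread, for example Gabarapl1 at 20.75 ± 3.149 and Ulk2 at 20.5 ± 3.239 RPKM in control muscle. The lowest levels were those of Atg10, the E2-like enzyme for ATG12 (2.432 ± 0.646 RPKM), Pik3r4, which encodes the VPS15 subunit of the lipid kinase (2.023 ± 0.2484), and Atg7, the E1-like enzyme of the conjugation system (1.641 ± 0.2756). That order rests on the merged exon length: per kilobase of the longest transcript, over all muscles, Atg10 was lowest (2.759 RPKM), followed by Atg7 (2.834) and Atg4c (2.905), and Pik3r4 was at 3.993 RPKM. By step, the 5 ATG8 genes held 33.6% ± 3.11 of the members' summed RPKM in control muscle and 29.4% ± 3.32 in secretome muscle (SD, n = 10 each), and the 5 cargo receptors held 29.7% ± 2.48 and 31% ± 1.45. The PI3-kinase complex, with 6 genes, held 3.69% ± 0.328 and 3.79% ± 0.235. The ULK complex held 9.25% ± 1.3 and 10.6% ± 1.09, so the transcripts of this pathway came mostly from the ATG8 proteins and the receptors that bind them.

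**Figure D1:**
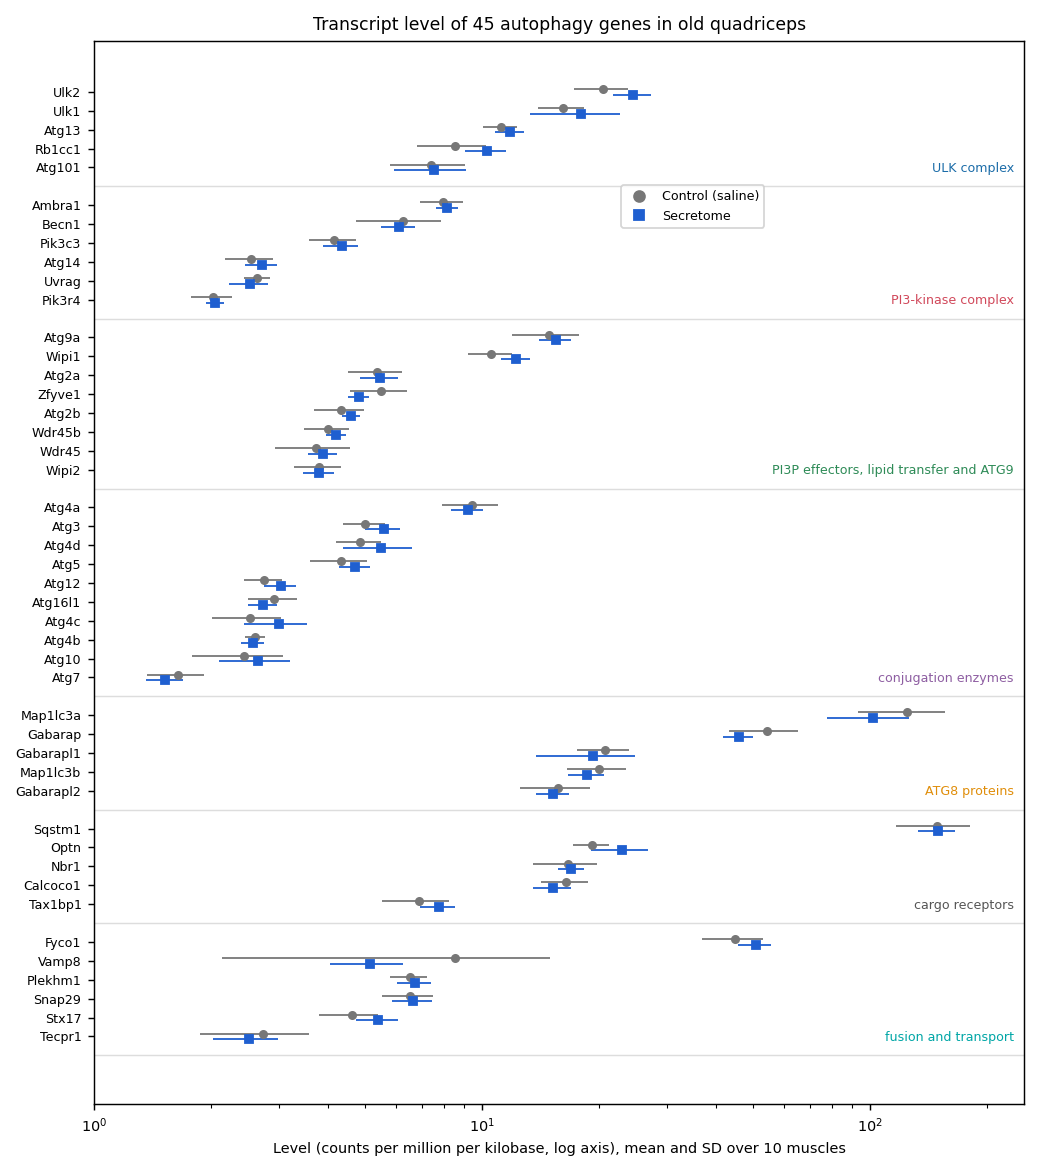
Mean level of each of the 45 members in RPKM on a log axis, with bars giving the SD over 10 control and 10 secretome muscles, grouped by step of autophagy. Sqstm1 and Map1lc3a lie at the top (all-muscle means 149.2 and 113.3 RPKM) and Atg7 at the bottom (1.584 RPKM).

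Across all 20 muscles no member passed the 5% false discovery rate in edgeR's quasi-likelihood test. The smallest Benjamini-Hochberg adjusted p of a member was 0.206, for Ulk2. At an unadjusted p under 0.05 there were 8 of 45 members (17.8%), against 15.7% of all genes tested, so the share of members was near the background. Of these 8, 5 had higher counts in secretome muscle (6.52% of all genes did) and 3 had lower counts (9.21% of all genes). The log2 fold change was above 0 for 29 members (64.4%, against 44.1% of all genes), and the members' median was 0.04. DESeq2, fitted to 32456 genes without the filter on low counts, put 9 members (20%) under an unadjusted p of 0.05, against 9.26% of its genes. Those genes include low-count ones, while all 45 members passed the filter, so the 2 shares are not a like comparison. DESeq2 put no member under the 5% false discovery rate, where it called 216 of the 17310 genes that kept an adjusted p (1.25%). With a term for the 3 library ranges the count of higher members at an unadjusted p under 0.05 was 0 instead of 5. In that fit 2 members in either direction (4.44%) were under it, against 5.77% of all genes. The control and secretome ranges overlapped for all 45 members, while 0.0484% of all genes had ranges that did not overlap.

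**Figure D2:**
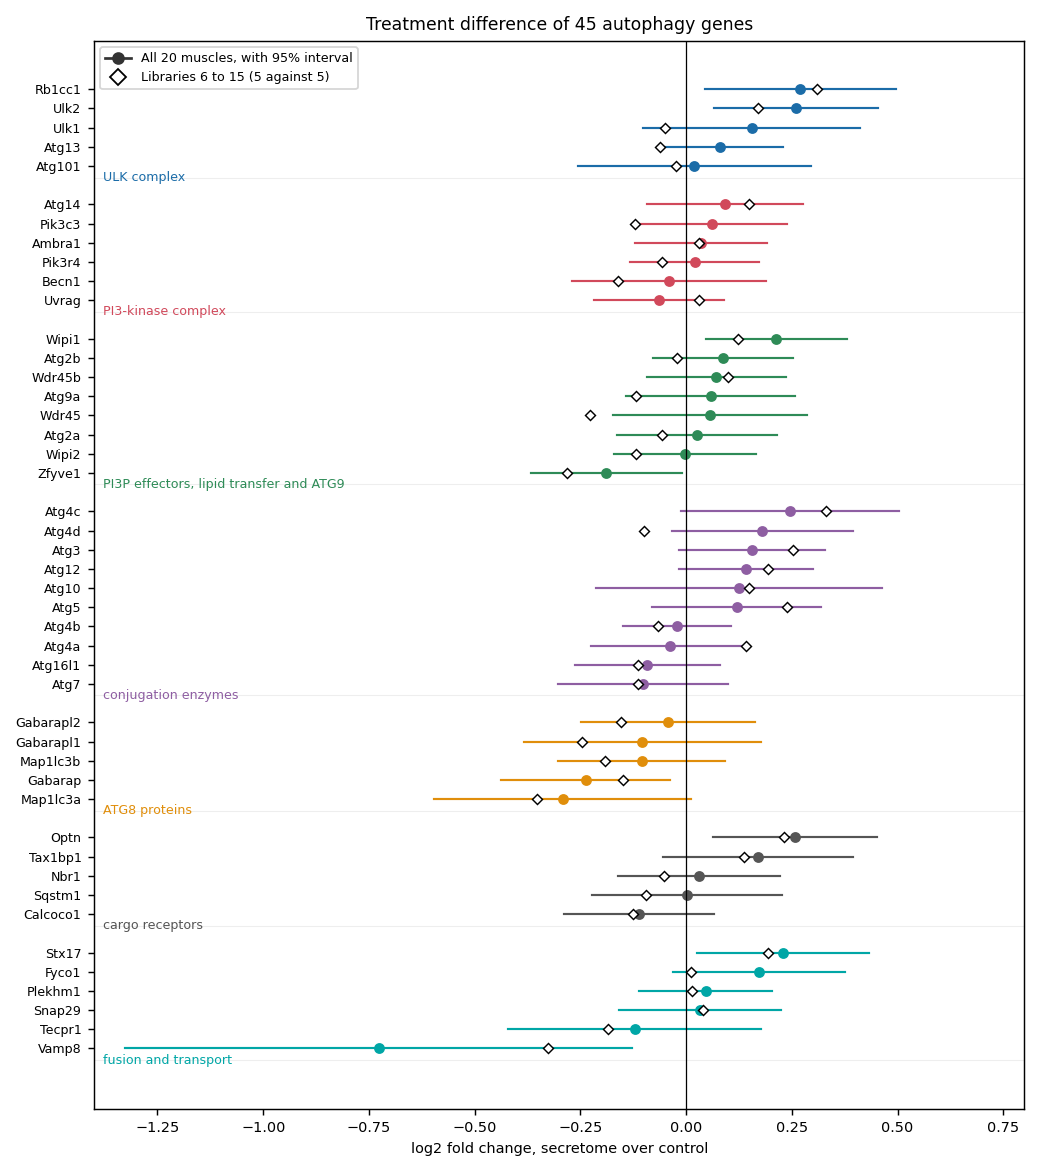
Log2 fold change, secretome over control, of each member with its 95% confidence interval, by step, for all 20 muscles and for libraries 6 to 15. All 5 ATG8 genes lie below 0 in both comparisons, and all 5 ULK complex genes lie above 0 for all 20 muscles but 2 of 5 do so for libraries 6 to 15. The signs of Gabarapl1 and Gabarapl2 and of Ulk1, Atg13 and Atg101 turned under some alternatives.

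All 5 genes of the ULK complex had a log2 fold change above 0 across all 20 muscles (median 0.15). Of the 5, 2 had an unadjusted p under 0.05 there (40%, against 15.7% of all genes). With a term for the 3 library ranges Ulk1, Atg13 and Atg101 lay below 0. In that edgeR fit neither Ulk2 (p = 0.235) nor Rb1cc1 (p = 0.0562) was under the threshold. Ulk2, 1 of the pair of initiating kinases, ran from 89.85 to 145.8 CPM in control muscle (median 127.9) and from 128.4 to 183 CPM in secretome muscle (median 146.4). All 10 secretome muscles lay above the control median, and the ranges overlapped because the higher control muscles reached into the secretome range. The log2 fold change of Ulk2 was 0.26 ± 0.09 (SE; unadjusted p = 0.0111), and 0.17 ± 0.13 within libraries 6 to 15 (p = 0.194). Rb1cc1, which encodes the scaffold FIP200, ran from 82.5 to 159.3 CPM in control (median 126) and from 120.9 to 172.5 CPM in secretome muscle (median 157.4), and 9 of 10 secretome muscles lay above the control median. Its log2 fold change was 0.27 ± 0.11 (SE; unadjusted p = 0.0210), and 0.10 once trends on gene length and GC content were removed. Ulk1, the other kinase, had a log2 fold change of 0.15 ± 0.12 (unadjusted p = 0.224), with 5 of 10 secretome muscles above the control median. Ulk1 ran from 101.9 to 175.3 CPM in libraries 16 to 20 and from 85.86 to 123.8 CPM in libraries 11 to 15, which overlapped. Atg13, the regulatory subunit, and Atg101, its partner, were at 0.08 and 0.02 on the log2 scale.

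None of the 6 PI3-kinase complex genes had an unadjusted p under 0.05, and their median log2 fold change was 0.03. The smallest p was that of Atg14, the subunit that directs the kinase to the forming membrane. Atg14 ran from 8.665 to 13.66 CPM in control muscle (median 10.88) and from 10.42 to 13.85 CPM in secretome muscle (median 11.24). The groups overlapped, with 8 of 10 secretome muscles above the control median and a log2 fold change of 0.09 ± 0.09 (SE; unadjusted p = 0.311). Becn1 (Beclin 1) was at -0.04 ± 0.11, Pik3c3 (the catalytic subunit VPS34) at 0.06 ± 0.09 and Pik3r4 at 0.02 ± 0.07 on the log2 scale. The 95% intervals of these 3 log2 fold changes ran from -0.27 to 0.19 for Becn1, from -0.12 to 0.24 for Pik3c3 and from -0.13 to 0.17 for Pik3r4. Uvrag, which marks a second form of the complex, was at -0.06, and Ambra1, a Beclin 1 partner, at 0.04.

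Among the 8 genes for PI3P effectors, lipid transfer and ATG9, 6 lay above 0, and 1 in each direction had an unadjusted p under 0.05. Wipi1, a PI3P-binding protein of the early membrane, ran from 36.28 to 52.35 CPM in control muscle (median 49.61) and from 46.92 to 60.33 CPM in secretome muscle (median 54.18). In secretome muscle 8 of 10 values lay above the control median, and the log2 fold change was 0.21 ± 0.08 (SE; unadjusted p = 0.0147), and 0.12 ± 0.10 within libraries 6 to 15 (p = 0.219). Zfyve1 encodes DFCP1, a PI3P-binding protein of the endoplasmic reticulum sites where autophagosomes form. It ran from 35.64 to 57.99 CPM in control (median 45.12) and from 36.19 to 43.66 CPM in secretome muscle (median 39.91). All 10 secretome muscles lay below the control median but inside the wider control range. The log2 fold change of Zfyve1 was -0.19 ± 0.09 (SE; unadjusted p = 0.0393), and it lost that threshold when any 1 of 10 single muscles was left out, with -0.14 and p = 0.094 without control replicate 8. The lipid transfer genes Atg2a and Atg2b were at 0.03 and 0.09, and Atg9a, the membrane-spanning scramblase, at 0.06 on the log2 scale.

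The 10 conjugation enzyme genes had a median log2 fold change of 0.12, with 6 above 0 and none at an unadjusted p under 0.05 across all 20 muscles. The smallest p was that of Atg4c, a protease that processes ATG8 proteins. It ran from 6.412 to 11.16 CPM in control (median 7.972) and from 7.521 to 12.77 CPM in secretome muscle (median 9.315), with 9 of 10 secretome muscles above the control median. Its log2 fold change was 0.25 ± 0.12 (SE; unadjusted p = 0.0612). Atg3, the E2-like enzyme that hands ATG8 to its lipid, was at 0.16 ± 0.08 (p = 0.0755), Atg12, a ubiquitin-like modifier, at 0.14 ± 0.08 (p = 0.0794) and Atg5, its conjugation partner, at 0.12 ± 0.10 (p = 0.228). The other enzymes lay between -0.10 (Atg7) and 0.18 (Atg4d).

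**Figure D3:**
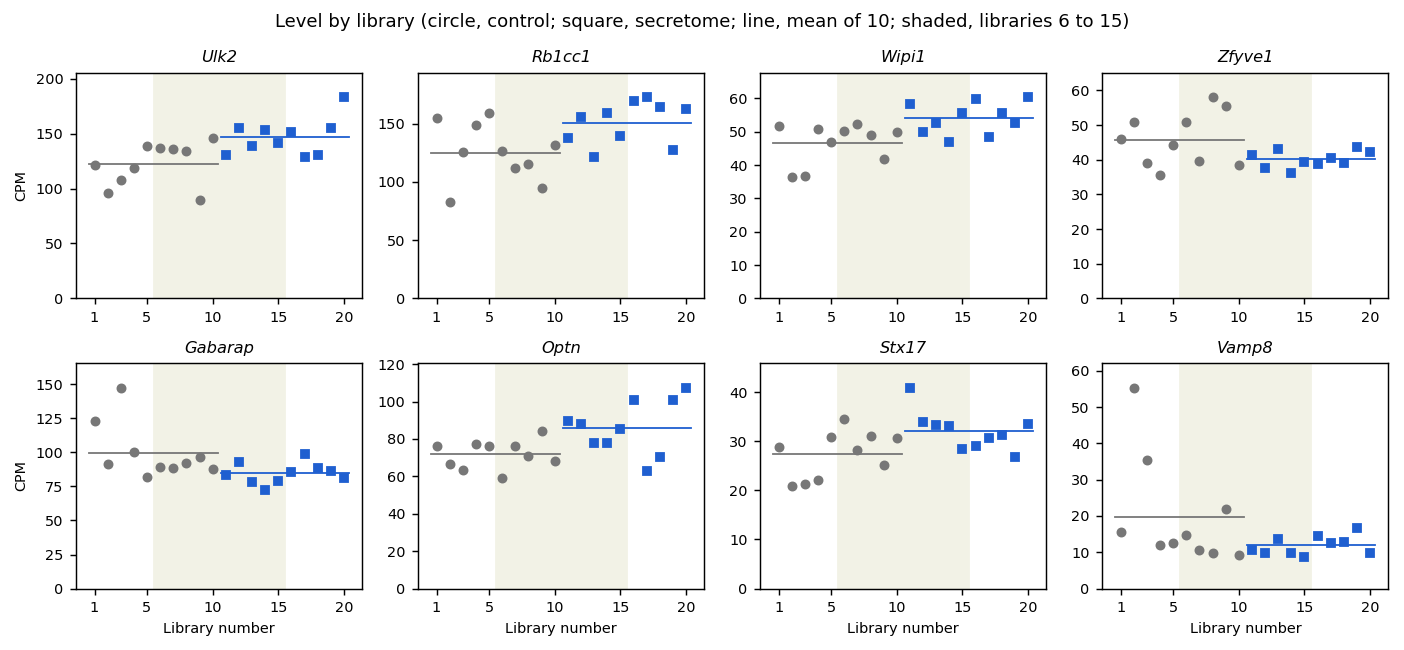
CPM in each of the 20 muscles for the 8 members with an unadjusted p under 0.05 across all muscles, with controls and secretome muscles split into library ranges. The groups overlap for each gene. The Vamp8 points of control replicates 2, 3 and 9 (55.41, 35.44 and 22.03 CPM) stand above the other muscles.

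All 5 ATG8 genes had a log2 fold change below 0 (median -0.11), in all 20 muscles and in libraries 6 to 15, and over all 20 the sign turned for Gabarapl2 under 5 and for Gabarapl1 under 2 of 30 alternatives. Gabarap, which carries GABARAP-type membrane attachment, ran from 82.22 to 147.7 CPM in control muscle (median 91.9) and from 72.62 to 98.91 CPM in secretome muscle (median 84.46). Of the secretome muscles 8 lay below the control median, and control replicates 3 and 1 (147.7 and 122.9 CPM) were the highest of all. The log2 fold change was -0.24 ± 0.10 (SE; unadjusted p = 0.0219), and -0.16 without control replicate 3 (p = 0.058). Within libraries 6 to 15 it was -0.15 ± 0.09 (p = 0.110), and over all 20 with gene length and GC trends removed it was -0.13 (p = 0.146). Map1lc3a, the most abundant ATG8 transcript here, ran from 97.52 to 213.1 CPM in control (median 141.8) and from 81.41 to 175.4 CPM in secretome muscle (median 116.6). Again 8 of 10 secretome muscles lay below the control median, with a log2 fold change of -0.29 ± 0.15 (SE; unadjusted p = 0.0583), and -0.058 with gene length and GC trends removed (p = 0.705). Map1lc3b, whose protein is the usual marker of autophagosomes, was at -0.11 ± 0.10 (p = 0.283), with medians of 142 CPM in control and 141.9 CPM in secretome muscle. Gabarapl2 was at -0.04 ± 0.10 (p = 0.675), with medians of 34.64 and 34.63 CPM. For these last 2 genes the medians coincided, and the highest control muscles lay above the highest secretome muscles. In the muscles outside libraries 6 to 15 taken alone, 3 of the 5 genes lay below 0.

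Gabarapl1, the GABARAP relative known to respond to fasting in muscle, split by library range. Control replicates 1 to 5 were at 46.94, 49.45, 48.49, 47.37 and 43.18 CPM, and control replicates 6 to 10 at 35.24, 34.97, 36.76, 42.62 and 32.67 CPM. Secretome replicates 1 to 5 were at 32.68, 25.95, 36.14, 31.07 and 26.58 CPM, and secretome replicates 6 to 10 at 41.85, 43.48, 47.41, 62.82 and 40.82 CPM. The 2 ranges of controls did not overlap, nor did the 2 ranges of secretome muscles, and in both treatments the muscles of libraries 6 to 15 were the lower ones. Across all 20 muscles the log2 fold change was -0.10 ± 0.14 (SE; unadjusted p = 0.453), and within libraries 6 to 15 it was -0.25 ± 0.11 (p = 0.0437).

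**Figure D4:**
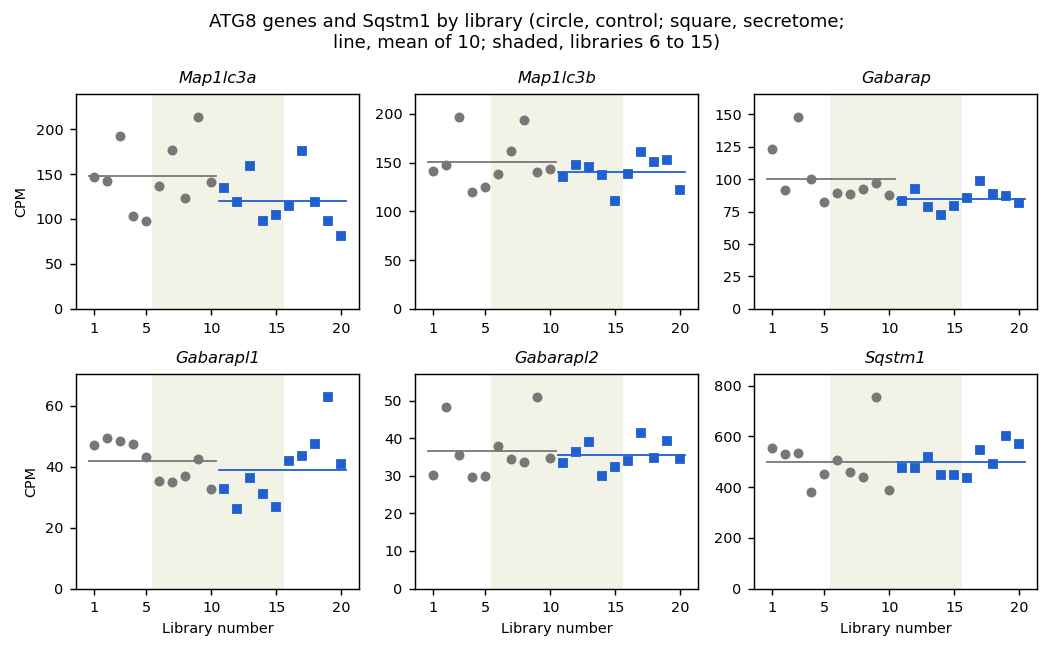
CPM of the 5 ATG8 genes and Sqstm1 in each muscle, plotted by library number, with circles for control, squares for secretome and libraries 6 to 15 shaded. For Gabarapl1 the muscles of libraries 6 to 15 (25.95 to 42.62 CPM) lie below nearly all of the others (40.82 to 62.82 CPM).

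Of the 5 cargo receptors, 4 lay above 0 and 1 had an unadjusted p under 0.05. Optn encodes optineurin, a receptor for ubiquitin-marked cargo and mitochondria. It ran from 59.29 to 84.47 CPM in control muscle (median 73.7) and from 62.91 to 107.5 CPM in secretome muscle (median 86.6). There were 8 of 10 secretome muscles above the control median, and the log2 fold change was 0.26 ± 0.09 (SE; unadjusted p = 0.0113). Sqstm1 ran from 379.4 to 756.1 CPM in control (median 482.6) and from 437.8 to 600.5 CPM in secretome muscle (median 483). Its log2 fold change was 0.00 ± 0.11, with a 95% interval from -0.22 to 0.23, the value nearest to 0 of the 45 members. Nbr1, which acts with p62, was at 0.03, Tax1bp1 at 0.17 and Calcoco1 at -0.11 on the log2 scale.

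Of the 6 fusion and transport genes, 4 lay above 0. Stx17, the autophagosomal SNARE, ran from 20.81 to 34.59 CPM in control (median 28.48) and from 26.71 to 40.94 CPM in secretome muscle (median 32.19). With 8 of 10 secretome muscles above the control median, its log2 fold change was 0.23 ± 0.10 (SE; unadjusted p = 0.0285), and it lost that threshold without any 1 of 4 single muscles (p up to 0.0675). Within libraries 6 to 15 it was 0.19 ± 0.11 (p = 0.114), and over all 20 with gene length and GC trends removed it was 0.14 (p = 0.119). Fyco1, an adaptor that moves autophagosomes along microtubules, was above the control median of 380.3 CPM in all 10 secretome muscles (388.2 to 507.1 CPM), while controls ran from 310 to 515 CPM. Its log2 fold change was 0.17 ± 0.10 (SE; unadjusted p = 0.0914).

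Vamp8, a SNARE of the lysosomal side that is also known from secretory and blood cells, had the largest fold change and the widest spread of the members. Control replicates 2, 3 and 9 were at 55.41, 35.44 and 22.03 CPM, and the other 7 controls ran from 9.286 to 15.49 CPM. Secretome muscles ran from 8.81 to 16.62 CPM, close to the span of those 7 controls. The log2 fold change was -0.73 ± 0.29 (SE; unadjusted p = 0.0199). It was -0.40 without control replicate 2 (p = 0.0731), and -0.33 ± 0.22 within libraries 6 to 15 (p = 0.158). Summed macrophage markers, with 9 of 9 detected, ran from 88.0 to 265.6 CPM in control (mean 152) and from 57.1 to 201.6 CPM in secretome muscle (mean 104.1; two-sided permutation test, p = 0.0754), and were 107.6 CPM in control replicate 2, 265.6 in replicate 3 and 194.5 in replicate 9. Of the neutrophil markers, Ly6g and Retnlg did not pass the count filter. The part of these cells in the lower members was not tested.

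Within libraries 6 to 15 (5 control and 5 secretome muscles) no gene of 14469 passed the 5% false discovery rate (0%) in edgeR's quasi-likelihood test, and 9.95% had an unadjusted p under 0.05. Among the members 7 of 45 (15.6%) did, 4 higher (5.02% of all genes) and 3 lower (4.92%). In all, 19 of 45 members lay above 0 (42.2%, against 47.9% of all genes), with a median of -0.05 against -0.01 over all genes. DESeq2, fitted without the filter on low counts, put no member under its 5% false discovery rate, where it called 37 of the 29853 genes fitted. At an unadjusted p under 0.05 it had 6 members (13.3%), against 5.94% of its genes. The 2 shares are again not a like comparison, since its genes include low-count ones. Without secretome replicate 2, 4 or 5 no member was lower at that threshold, and without control replicate 8 or secretome replicate 5 only 1 was higher. The ranges of the groups overlapped for all 45 members, and 1.91% of all genes had ranges that did not.

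The 4 higher members were Rb1cc1, Atg3, Atg4c and Optn. Rb1cc1 was at 126.3, 111.7, 115.2, 94.68 and 131.7 CPM in control and 138, 155.6, 120.9, 159.3 and 139.5 CPM in secretome muscle. Of the 5 secretome values 4 lay above every control, with a log2 fold change of 0.31 ± 0.11 (SE; unadjusted p = 0.0158), and 0.0087 once trends on gene length and GC content were removed. Optn was at 59.29, 76.46, 71.14, 84.47 and 68.19 CPM in control and 89.42, 87.84, 78.09, 77.86 and 85.37 CPM in secretome muscle, with only control replicate 9 inside the secretome range. Its log2 fold change was 0.23 ± 0.10 (p = 0.0413). Atg3 was at 15.41, 15.5, 14.41, 16.76 and 13.52 CPM in control and 18.1, 18.96, 13.95, 20.34 and 18.01 CPM in secretome muscle, where secretome replicate 3 alone fell among the controls (0.25 ± 0.12, p = 0.0472, and 0.065 with those trends removed). Atg4c was at 0.33 ± 0.15 (p = 0.0488). Rb1cc1 and Optn are thus the members with an unadjusted p under 0.05 and a higher level in both comparisons, which share libraries 6 to 15.

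The 3 lower members were Zfyve1, Map1lc3a and Gabarapl1. Zfyve1 was at 50.84, 39.5, 57.99, 55.61 and 38.42 CPM in control and 41.49, 37.61, 43.14, 36.19 and 39.42 CPM in secretome muscle. Control replicates 7 and 10 lay inside the secretome range and the other 3 controls above it (-0.28 ± 0.12, unadjusted p = 0.0384). Map1lc3a was at 136.6, 176.5, 122.9, 213.1 and 141.4 CPM in control and 134.8, 118.5, 158.7, 97.51 and 104.6 CPM in secretome muscle. The control values were spread up to 213.1 CPM and the groups overlapped between 122.9 and 158.7 CPM (-0.35 ± 0.16, p = 0.0471). In these libraries myofibre marker sums did not separate the treatments (means 300500 and 298600 CPM, exact permutation p = 0.952), while macrophage marker sums were 120.4 CPM in control and 71.74 CPM in secretome muscle (exact permutation p = 0.0159). Whether this bears on the lower members was not tested.

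The treatment difference within libraries 6 to 15 was then set against that between libraries 16 to 20 (secretome) and 1 to 5 (control), in 1 fit of all 20 muscles. The ranges were known from earlier results of these data, so the split is not independent of them. No member passed the 5% false discovery rate for this difference of differences, where 0.0553% of all genes did. Of the members 6 of 45 (13.3%) had an unadjusted p under 0.05, against 11.1% of all genes, and all 6 were lower in libraries 6 to 15 (5.51% of all genes) with 0 higher (5.59%). The difference was above 0 for 12 members (26.7%, against 51.7% of all genes) and below 0 for 33, with a median of -0.12 against 0.02 over all genes. Library range and treatment are not crossed outside libraries 6 to 15, so in the other muscles treatment and range cannot be told apart. Summed markers of fibro-adipogenic progenitors (5 of 5 detected) were 653.5 to 933.6 CPM in control replicates 1 to 5 and 170.7 to 417.3 CPM in replicates 6 to 10. In secretome replicates 1 to 5 they were 258.7 to 367.0 CPM, and in replicates 6 to 10 433.8 to 571.6 CPM. The part of these markers in the members' differences was not tested.

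The 6 members were Wdr45, Atg4d, Pik3c3, Atg13, Fyco1 and Atg9a, from 5 of the 7 steps. Wdr45 encodes the PI3P-binding protein WIPI4. It was at 11.69, 8.325, 8.943, 10.38 and 13.88 CPM in control replicates 1 to 5 and 13.7, 14.68, 13.95, 11.43 and 16.95 CPM in control replicates 6 to 10. Secretome muscles were close together, at 10.87 to 12.35 CPM in libraries 11 to 15 and 12.99 to 14.15 CPM in libraries 16 to 20. The lowest values were thus controls of the early libraries and the highest controls of libraries 6 to 10. The treatment difference was -0.23 ± 0.12 within libraries 6 to 15 and 0.37 ± 0.15 in the others, which gave -0.61 ± 0.18 (SE; unadjusted p = 0.00303; edgeR adjusted p = 0.202).

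Atg4d, another protease of ATG8 proteins, ran from 28.47 to 35.7 CPM in control replicates 1 to 5 and from 35.24 to 41.4 CPM in replicates 6 to 10. Secretome muscles ran from 33.04 to 40.56 CPM in libraries 11 to 15 and from 36.26 to 60.07 CPM in libraries 16 to 20. Its treatment difference was -0.10 ± 0.09 and 0.47 ± 0.15, a difference of -0.58 ± 0.17 (unadjusted p = 0.00303). For Fyco1, control replicates 1 to 5 ran from 310 to 385.1 CPM and replicates 6 to 10 from 375.5 to 515 CPM, while the secretome ranges were 388.2 to 507.1 and 399.1 to 494.6 CPM. The early controls stood low and the other 3 sets overlapped widely, so that the treatment difference was 0.01 ± 0.11 within libraries 6 to 15 and 0.37 ± 0.12 in the others (difference -0.38 ± 0.16, p = 0.0251). Pik3c3 gave -0.40 ± 0.15 (p = 0.0157), Atg13 -0.31 ± 0.13 (p = 0.0214) and Atg9a -0.39 ± 0.18 (p = 0.0385). In Atg13, control replicates 1 to 5 (41.88 to 48.83 CPM) all lay below replicates 6 to 10 (50.78 to 55.29 CPM).

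**Figure D5:**
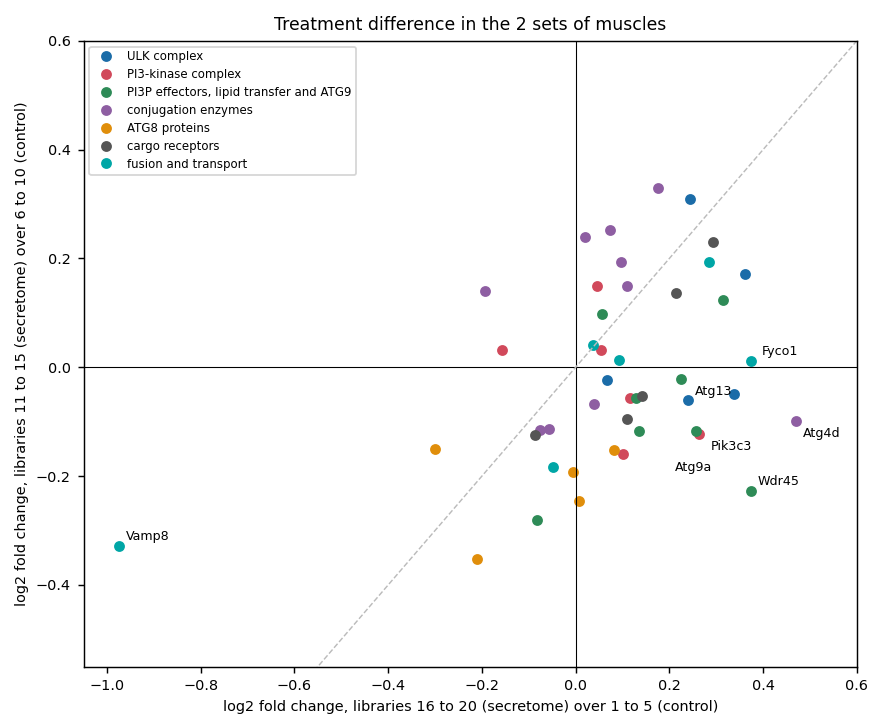
Log2 fold change, secretome over control, of each member in libraries 6 to 15 (vertical) against that in libraries 1 to 5 and 16 to 20 (horizontal), with no libraries shared between the axes and a dashed line of equal values. More points lie below the line than above it (33 of 45 by the test of the difference), and Vamp8 lies at the far left (-0.97 and -0.33).

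In libraries 1 to 5 and 16 to 20 alone, 34 of 45 members lay above 0 (75.6%, against 44.2% of all genes), with a median of 0.10 against -0.05. Of the members 8 were higher at an unadjusted p under 0.05 (6.53% of all genes were) and 1, Vamp8, lower (9.56%). These muscles share none with libraries 6 to 15. The sign was the same in the 2 sets for 26 of 45 members (57.8%, 17 higher in both and 9 lower in both), and for 57.2% of the 14203 genes tested in both, so agreement of the members was near that of all genes. Within control muscle, control replicates 6 to 10 stood above replicates 1 to 5 for 29 of 45 members and for 7212 of all 14471 genes. The median difference was 0.10 in log2 CPM against -0.00 over all genes. Within secretome muscle, 18 of 45 members and 7021 of the 14471 genes were higher in libraries 11 to 15 than in 16 to 20 (median -0.03 against -0.01).

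Members varied less between secretome than between control muscles. The median coefficient of variation was 15.97% in control and 10.38% in secretome muscle, and 21.07% and 14.5% over the 9583 tested genes within the members' range of mean CPM. Vamp8 had the largest value in control muscle (74.91%, against 21.38% in secretome muscle), and Atg4b, a protease of ATG8 proteins, the smallest (5.926%). This narrowing was shared with the other genes of that range and was not tested.

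Other genes of the pathway were read from the same fits. Of 35 further machinery genes, all tested, 2 were higher and 1 lower at an unadjusted p under 0.05 across all 20 muscles, with a median log2 fold change of 0.09. These 3 genes are 8.57% of the list, below the 15.7% of all genes at that threshold. Trappc8, a subunit of a tethering complex that acts in ATG9 traffic, had a log2 fold change of 0.29 ± 0.12 (SE; p = 0.0183), and Tmem41b, a scramblase of the endoplasmic reticulum, one of 0.32 ± 0.14 (p = 0.0309). Tex264, a receptor for autophagy of the endoplasmic reticulum, was at -0.31 ± 0.15 (p = 0.0451). Within libraries 6 to 15 none of the 35 was higher and 1 lower at that threshold (2.86%, against 9.95% of all genes). Of 25 upstream regulators, 4 were higher and 0 lower across all 20 muscles (16%, near the 15.7% of all genes), with a median log2 fold change of 0.09.

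The 3 regulators with the smallest p act in nutrient and energy sensing, as do most genes of that list, so this theme follows from how the list was made. Rragd, a Rag GTPase that brings mTORC1 to the lysosome, ran from 235.7 to 317.6 CPM in control and from 297.1 to 433.4 CPM in secretome muscle (0.25 ± 0.09, p = 0.00825). Prkaa2, the AMPK catalytic subunit typical of muscle, was at 0.34 ± 0.13 (p = 0.0166), and Prkab2, an AMPK regulatory subunit, at 0.28 ± 0.12 (p = 0.0243). Within libraries 6 to 15 their log2 fold changes were 0.18, 0.23 and 0.12, all with an unadjusted p over 0.05, and of the 25 regulators 2 were higher and 1 lower at that threshold (12%, against 9.95% of all genes). No gene of either list passed the 5% false discovery rate in edgeR's test in either comparison.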

How the data were processed

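RNA of 20 quadriceps muscles (10 control, 10 secretome) was sequenced by the authors from rRNA-depleted, stranded libraries as read pairs, and they deposited 1 table of raw counts per Ensembl gene. The submitters' processing notes name cutadapt 1.16, STAR 2.7.9a, featureCounts 1.6.3, DESeq2 1.34.0 and the builds GRCm39 and mm39. The annotation and the strand setting of the counting are not given in the sources used here. An exon of 16 members overlaps a gene on either strand (3 on the same strand, Atg9a, Fyco1 and Wdr45), so reads of these could be shared.

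From the deposited counts, genes were filtered with filterByExpr, scaled by TMM and tested with edgeR 4.0.16 (R 4.3.3) by the robust quasi-likelihood F-test with treatment as the only term. The Benjamini-Hochberg adjustment ran over all genes tested, with a 5% false discovery rate. The 3 fits were: all 20 muscles, libraries 6 to 15, and the difference of treatment effects between library sets. CPM are TMM-scaled, and RPKM divide them by the exon length in GENCODE M21 (GRCm38). Marker sums were compared by two-sided permutation tests (1e+05 resamples, or exact). The scripts were tested on simulated counts. Alternatives were DESeq2 1.42.0, RLE scaling, no filter, voom (limma 3.58.1), a replicate block, 1 surrogate variable (sva 3.50.0), terms for library ranges, and each muscle left out, and, chosen after seeing the data, removal of length and GC trends and libraries 1 to 5 and 16 to 20 alone.

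The members, lists and library ranges were chosen with earlier results of these data known. Named in full are members with an unadjusted p under 0.05 in any of the 3 tests, the smallest p of each step, the 3 highest and 3 lowest levels, the 5 ATG8 genes, and the 3 smallest p of each other list. Each muscle came from a separate mouse. Depth (13286983 to 22987237 counts) limits the precision of low members most.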

Additional observations from a re-analysis of the deposited data

Results flagged for a closer look

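For 6 members the treatment difference in libraries 6 to 15 departed from that in the other muscles at an unadjusted p under 0.05, with the difference between the 2 at -0.611 for Wdr45, -0.581 for Atg4d, -0.397 for Pik3c3, -0.386 for Atg9a, -0.375 for Fyco1 and -0.312 for Atg13 on the log2 scale. None of these differences passed the 5% false discovery rate in edgeR's test, and the smallest adjusted p was 0.202. Over the same muscles, myofibre marker sums were 117760 to 195120 CPM in control replicates 1 to 5 and 241480 to 332220 CPM in control replicates 6 to 10. Ttn is itself part of the myofibre sum, and its share of counts was 7.02% to 11.03% and 16.4% to 21.1% in the same sets. Fibro-adipogenic progenitor marker sums were 653.5 to 933.6 CPM and 170.7 to 417.3 CPM. Secretome replicates 1 to 5 and 6 to 10 had myofibre sums of 270260 to 320530 CPM and 215620 to 284650 CPM. Ttn shares in these 2 secretome sets were 17.8% to 20.7% and 14.2% to 14.7%. Progenitor sums there were 258.7 to 367.0 CPM and 433.8 to 571.6 CPM. The part of these markers in the members' differences was not tested.

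In 3 of 90 groups of 10 muscles, 1 muscle stood far from the others. Chance gives such a gap in about 1 in 20 groups. For Ulk2, secretome replicate 10 was the highest at 183 CPM, with the next at 154.9 CPM, a gap of 0.47 of the group's range. For Nbr1, control replicate 9 was the highest at 166.5 CPM, with the next at 125.3 CPM, a gap of 0.475 of the range. For Tax1bp1, a receptor for ubiquitin-marked cargo, control replicate 2 was the lowest at 37.83 CPM, with the next at 61.7 CPM, a gap of 0.558 of the range.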

How the results depend on the processing

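No member passed the 5% false discovery rate in any comparison under any alternative run. Across all 20 muscles the 5 higher members at an unadjusted p under 0.05 became 3 under voom, 0 with a term for the 3 library ranges and 8 in libraries 1 to 5 and 16 to 20 alone, and the 3 lower members became 1 under voom, the replicate block, 1 surrogate variable and in those libraries alone. Leaving out single muscles gave 4 to 8 higher (8 without control replicate 5) and 1 to 4 lower (1 without control replicate 2). In libraries 6 to 15 the 4 higher members became 1 without the filter on low counts and 1 with length and GC trends removed, and the 3 lower became 0 with those trends removed. With the trends removed 2.22% of members were under that threshold, against 6.41% of all genes. Single muscles left out gave 1 to 4 higher (1 without control replicate 8 or secretome replicate 5, 2 without control replicates 6 or 10 or secretome replicates 1, 2 or 4) and 0 to 3 lower (0 without secretome replicates 2, 4 or 5, 1 without control replicates 6, 7 or 8). For the difference between the sets, the 6 lower members became 11 under voom and 4 to 11 with single muscles left out (11 without control replicate 2), and 0 to 1 were higher (1 without control replicates 4, 5 or 7 or secretome replicate 8). Under voom 24.4% of members passed the unadjusted threshold for this difference, against 17.7% of all genes. Of the further machinery, DESeq2 gave 6 higher and 0 lower and RLE scaling 0 lower. With the term for 3 ranges the treatment difference comes from libraries 6 to 15, because the other ranges hold 1 treatment each. In that fit of all 20 muscles the log2 fold changes turned to -0.072 for Atg13, -0.13 for Pik3c3, -0.24 for Wdr45, -0.13 for Atg9a, -0.11 for Atg4d, -5.162e-05 for Fyco1, -0.11 for Sqstm1 and -0.067 for Pik3r4. Under voom they turned to -0.048 for Wdr45, -0.032 for Atg9a, -0.049 for Pik3r4 and 0.012 for Gabarapl2. With 1 surrogate variable Atg10 turned to -0.0085 and Gabarapl2 to 0.081, in libraries 1 to 5 and 16 to 20 alone Gabarapl2 to 0.081 and Gabarapl1 to 0.0067, and with length and GC trends removed Gabarapl1 to 0.010. Single muscles left out moved Sqstm1 between -0.036 and 0.087, Pik3r4 between -0.00088 and 0.052 and Gabarapl2 between -0.072 and 0.023. The cause of these shifts was not tested. Replicate numbers did not pair the muscles (correlations of same-numbered deviations -0.24 to 0.22, over 0.1 in 2 of 10 pairs), and the replicate block left the higher count within 1.5 times. No paired analysis was possible for libraries 6 to 15 because its groups share no replicate numbers. Depth limits the low members most, such as Atg10 at 4.178 CPM in control muscle.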
